A study of Camelus dromedarius with 10 samples.

Results

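Adhesion G protein-coupled receptors are a receptor family defined by long extracellular regions that bind matrix proteins or proteins on neighbouring cells. A list of 32 family symbols was looked up in the gene tables that accompany the study, and 17 symbols were paired there with 1 Ensembl gene ID each, out of 22444 IDs in the count table. Of these 17, 15 came from a table of receptors by class made for the control state, and so were found without regard to their response. The other 2, ADGRG1 and ADGRL4, were found only in a shortened table of the study's own comparison. Of the IDs that table holds, 90.0% are among the same number of IDs with the smallest p in the DESeq2 fit of the same counts, so the values of ADGRG1 and ADGRL4 in that comparison are given as a description and support nothing. The name ADGRE2 rests on a human ortholog. The remaining 15 symbols (ADGRA1, ADGRA3, ADGRB1, ADGRD2, ADGRE1, ADGRF1, ADGRF2, ADGRF3, ADGRF4, ADGRG2, ADGRG3, ADGRG4, ADGRG5, ADGRL3 and ADGRV1) had no ID there and are not analysed here.

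RNA came from the supraoptic nucleus (SON), the hypothalamic nucleus of the magnocellular neurones that make vasopressin and oxytocin. Punches from 1 side of the brain were taken from male dromedary camels, 5 with free access to food and water (control) and 5 with food but no water for 20 days (water deprivation, WD). Each library was made from total RNA after depletion of ribosomal RNA, and a punch holds glia, vessels and blood cells beside the neurones. Libraries are named by group and number (CON2, CON3, CON4, CON5 and CON13, and WD6, WD7, WD8, WD9 and WD15).

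Between 1665098 and 8126641 read pairs were counted on genes per library. A set of 5 gene IDs without a symbol took between 27.7% and 76.1% of them, which left between 397495 (CON13) and 5872137 (WD9) read pairs for all other genes, with 1106575 in WD6. Levels are CPM, the counts of a gene scaled to a common library size after TMM normalization. On this scale 1 read pair was worth 1.20 CPM in CON13, 0.475 in WD6 and 0.237 or less in each other library. PDYN, which encodes prodynorphin and is made by magnocellular neurones, was at 162 ± 46.4 CPM (SD, n = 5) in control and at 618 ± 127 CPM (SD, n = 5) with WD (adjusted p = 0.000302, edgeR), while AVP and OXT, the defining genes of these neurones, had no ID in the tables. The summed level of PDYN and PTPRN was 511 to 745 CPM in control and 1153 to 2771 CPM in WD libraries, and its part in the receptor levels was not tested.

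In this family a domain next to the membrane cuts many members into an extracellular part and a membrane part that stay together, and the new end of the membrane part can act as a tethered agonist. Latrophilins (ADGRL1, ADGRL2 and ADGRL3) and brain-specific angiogenesis inhibitors (the ADGRB genes) act at synapses, where they bind teneurins, FLRT proteins or C1q-like proteins. CELSR proteins are cadherin-like receptors of planar cell polarity and axon guidance. Others are known from vessels (ADGRA2, ADGRF5 and ADGRL4), from glia and their precursors (ADGRG1 and ADGRG6) or from leukocytes (ADGRE genes).

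All 17 receptors had counts in control camels. For the 15 paired by class the lookup set this, since that table holds only genes with counts in control. The counts differed widely between receptors. Over the 10 libraries they ranged from 60 read pairs for ADGRE3 to 9474 for ADGRL1. ADGRL1, a latrophilin, and CELSR2 together took between 37.5% and 51.9% of the read pairs of the 17 receptors in each library. By mean control CPM the order was ADGRL1, CELSR2, CELSR3, ADGRG1, ADGRL2, ADGRB3, ADGRA2, ADGRF5, ADGRB2, CELSR1, ADGRD1, ADGRE5, ADGRG6, ADGRL4, ADGRE3, ADGRE2 and ADGRG7. This is an order of read pairs and not of transcripts, since a longer transcript gives more read pairs and transcript lengths were not available to correct for it. For 14 of the 16 neighbouring pairs in this order the ranges of the 5 control libraries overlapped. The exceptions were the step from CELSR2 to CELSR3 and the step from ADGRL4 to ADGRE3. Without CON13 the mean control level of ADGRE3 was 0.830 CPM, below ADGRE2 (1.52 CPM) and ADGRG7 (1.49 CPM).

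**Figure D1:**
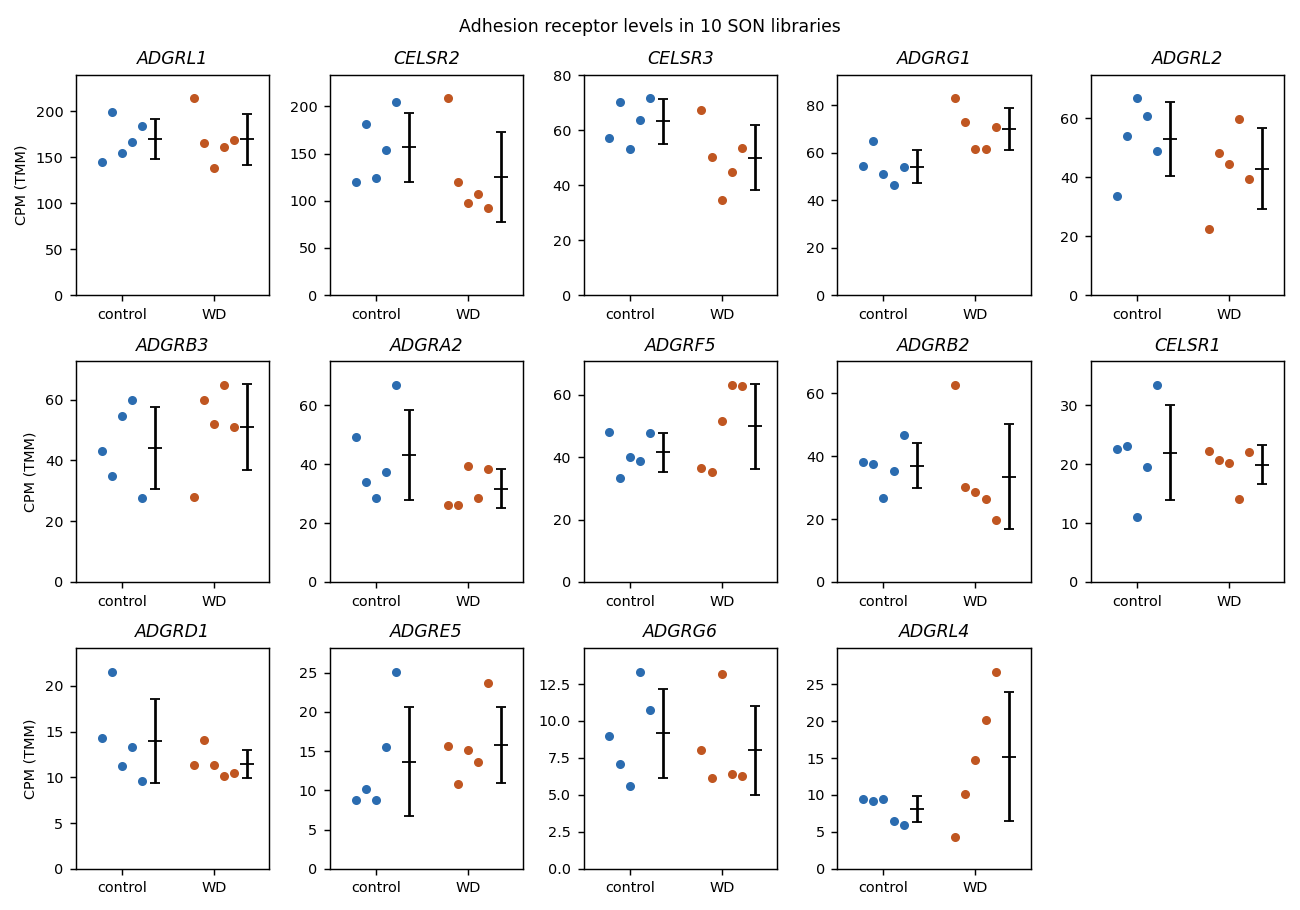
Each panel plots the CPM (TMM-normalized) of 1 receptor in the 5 control (blue) and 5 WD (orange) libraries, with the mean and SD as a bar beside the points, for the 14 receptors that passed the filter on low counts. Within each group libraries are drawn in the order of their numbers. The groups overlap in all 14 panels.

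With 20 days of WD, none of the 14 receptors tested was called a differentially expressed gene (DEG). Of the 17 receptors, 14 passed the filter on low counts and were tested with edgeR's quasi-likelihood test, and 0 of 14 had an adjusted p of at most 0.05 (Benjamini-Hochberg over 14432 genes), where 0.499% of all genes tested did. In 0 of 14 did the WD and control libraries fall into ranges that do not overlap, where 2.62% of all genes tested did. DESeq2's Wald test, the study's tool, also called 0 of 14, beside 1.27% of the genes it tested. At an unadjusted p under 0.05 in the edgeR fit stood 2 of the 14, beside 9.31% of all genes, and these 2 were ADGRG1 and ADGRL4, which the lookup had found through their p. None of the 12 receptors paired by class was at an unadjusted p under 0.05 (edgeR), and their adjusted p ranged from 0.619 to 0.996. That count of 0 held for all 10 libraries together, and without WD6 it was 3 of 12 (ADGRB2, CELSR2 and CELSR3, at unadjusted p of 0.0284, 0.00666 and 0.0158 by edgeR, none of them called).

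The 12 receptors paired by class had log2 fold changes of WD over control between -0.39 (ADGRA2) and 0.34 (ADGRE5), 3 of them above and 9 below 0. Their median was -0.16, beside 0.017 over all genes tested. The median size of the change, without its sign, was 0.29 in these receptors and 0.22 over all genes, and the median standard errors were 0.23 and 0.26. Among the other G protein-coupled receptors of the same class table, 1 of 51 tested was called by edgeR and 4 by DESeq2. Of these 51, 10 were at an unadjusted p under 0.05 in edgeR, and in 5 the groups did not overlap. Over all genes tested these shares were 0.499%, 1.27%, 9.31% and 2.62%. These other receptors were measured less precisely, with a median standard error of 0.43 and a median size of change of 0.51. In bulk samples such as these, fewer cells of a type and less RNA per cell cannot be told apart.

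**Figure D2:**
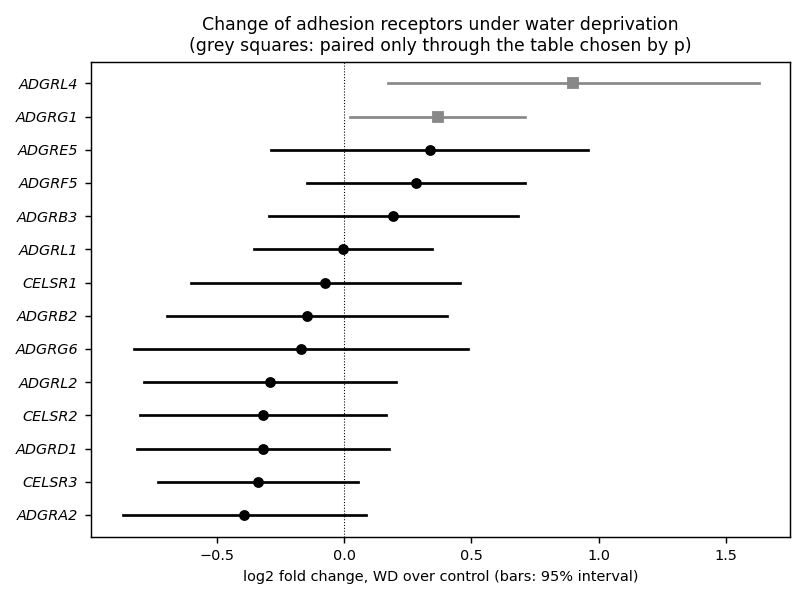
Points give the log2 fold change of WD over control from edgeR for each of the 14 receptors tested, and lines its 95% interval, unadjusted for the number of genes. Grey squares mark ADGRL4 and ADGRG1, which were paired through a table chosen by p. The intervals of the other 12 receptors all include 0.

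ADGRL1 binds teneurins and FLRT proteins and was first known as the receptor of a spider toxin. It was at 144.7, 199, 155, 166 and 184 CPM in CON2, CON3, CON4, CON5 and CON13. The WD libraries, in the order WD6, WD7, WD8, WD9 and WD15, were at 214, 165, 138, 161 and 168 CPM. Both groups span nearly the same range, with WD6 the highest and WD8 the lowest of the 10. The means were 169.8 ± 22.1 CPM (SD, n = 5) and 169 ± 27.6 CPM (SD, n = 5), and the log2 fold change was -0.0040 ± 0.17 (SE), with edgeR's adjusted p = 0.996. The 95% interval of the fold ran from 0.782 to 1.27, so a larger difference in either direction lies outside it.

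ADGRL2, a second latrophilin, was at 33.7, 53.9, 66.8, 60.8 and 49.0 CPM in CON2, CON3, CON4, CON5 and CON13. In WD6, WD7, WD8, WD9 and WD15 it was at 22.3, 48.3, 44.4, 59.8 and 39.4 CPM. CON2 was the lowest control library and WD6 the lowest WD library, and the other 8 libraries lay between 39.4 and 66.8 CPM. The log2 fold change was -0.29 ± 0.24 (SE), with edgeR's adjusted p = 0.766. It was -0.15 without WD6, -0.45 without CON2 and -0.45 without WD9. ADGRL1 had between 2.32 and 9.51 times the counts of ADGRL2 within a library, and this ratio between genes was highest in WD6. The WD minus control difference of its log2 was 0.33. With 1 library left out at a time it ranged from 0.024 (without WD6) to 0.48 (without WD9), and was 0.20 without CON4.

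Of the latrophilins' listed binding partners, TENM1, FLRT1 and NRXN2 are given here, all of them paired only through the table chosen by p. Their log2 fold changes were -0.77, -1.28 and -0.48, with adjusted p of 0.192, 0.1995 and 0.269 by edgeR, so 0 of these 3 was called, while all 3 were at an unadjusted p under 0.05 and DESeq2 called 1, NRXN2. TENM1, a teneurin, was at 126.5 ± 29.6 CPM (SD, n = 5) in controls and at 73.6 ± 22.8 CPM (SD, n = 5) with WD. These values are a description, since the genes were found through this comparison.

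ADGRB2 and ADGRB3 belong to the brain-specific angiogenesis inhibitors, and ADGRB3 is the receptor of C1q-like synaptic organisers. ADGRB3 was at 43.1, 35.0, 54.7, 59.9 and 27.5 CPM in CON2, CON3, CON4, CON5 and CON13, and at 28.0, 59.9, 52.1, 64.8 and 50.8 CPM in WD6, WD7, WD8, WD9 and WD15. Its lowest levels were in CON13 and WD6, the libraries with the fewest read pairs outside the 5 dominant IDs. ADGRB2 was at 38.2, 37.6, 26.7, 35.4 and 46.6 CPM in the same 5 control libraries and at 62.6, 30.1, 28.6, 26.5 and 19.8 CPM in the WD libraries in that order. Here WD6 and CON13 were the highest of the 10. The log2 fold change was 0.19 ± 0.23 (SE), with edgeR's adjusted p = 0.861 for ADGRB3. With 1 library left out at a time this ranged from 0.089 (without WD9) to 0.33 (without CON5), and was 0.093 without CON3, 0.092 without CON13, 0.12 without WD7 and 0.33 without WD6. That of ADGRB2 was -0.15 ± 0.26 (SE), with edgeR's adjusted p = 0.926. Without WD6 it was -0.45 (adjusted p = 0.314, edgeR), and without WD15 it was -0.0043 (adjusted p = 0.998, edgeR). It was -0.27 without CON4, -0.083 without CON13 and -0.082 without WD9.

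Within a library, ADGRB2 had between 0.489 and 1.68 times the counts of ADGRB3 in control camels and between 0.391 and 2.23 times in WD camels. The ratio was highest in WD6, followed by CON13. The control mean of the log2 ratio was -0.22 ± 0.71 (SD, n = 5) and the WD mean -0.67 ± 1.04 (SD, n = 5). Their difference of -0.45 lay within the spread of the libraries (two-sided exact permutation test over 252 assignments, p = 0.429), and without WD6 it was -0.90 (exact permutation p = 0.0556). It was -0.20 without CON13, -0.28 without WD15 and -0.29 without WD9, with exact permutation p of 0.770, 0.619 and 0.611. The same test gave p = 0.476 for ADGRL1 to ADGRL2, 0.333 for CELSR1 to CELSR2 and 1 for CELSR3 to CELSR2 (exact permutation). With Benjamini-Hochberg adjustment over the 4 ratios no exact permutation p was under 0.635. The smallest p that 5 against 5 libraries allow is 0.00794. Such ratios do not depend on how a library is scaled.

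**Figure D3:**
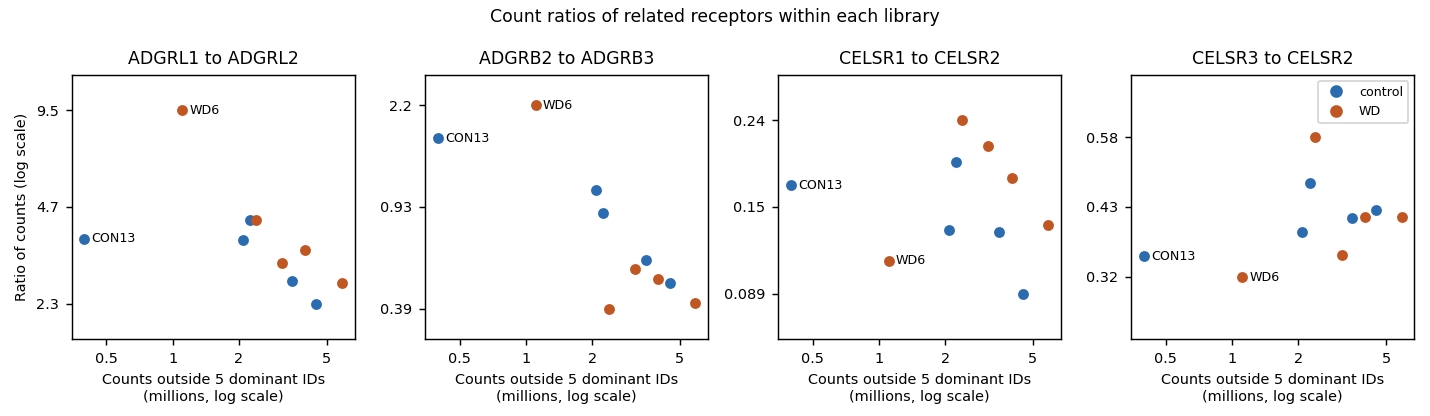
Each panel plots the ratio of the counts of 2 related receptors within a library (log scale) against the read pairs counted outside the 5 dominant IDs (log scale), with control libraries in blue and WD libraries in orange. CON13 and WD6 lie at the left of each panel. ADGRB2 to ADGRB3 is highest in these 2 libraries (1.68 and 2.23).

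Of the 7 listed partners of the ADGRB receptors, 3 were paired and all came through the table chosen by p. C1QL4, a C1q-like protein, was at 5.73 ± 3.95 CPM (SD, n = 5) in controls and at 0.230 ± 0.343 CPM (SD, n = 5) with WD and was the only one called (adjusted p = 0.0169, edgeR). These levels rest on 121 read pairs in control and 8 in WD libraries, with 0 in WD6, WD9 and WD15. RTN4R and RTN4RL1, Nogo receptors, had log2 fold changes of -1.14 and -1.56 and were not called (adjusted p = 0.486 and 0.281, edgeR).

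CELSR2 was at 119.5, 181, 124, 154 and 204.5 CPM in CON2, CON3, CON4, CON5 and CON13. The WD libraries, in the order WD6, WD7, WD8, WD9 and WD15, were at 209, 120.4, 98.0, 107 and 92.1 CPM. WD8, WD9 and WD15 lay below the control libraries, WD7 lay just above the lowest of them, and WD6 was the highest of the 10. The means were 156 ± 36.5 CPM (SD, n = 5) in controls and 125 ± 47.9 CPM (SD, n = 5) with WD, and the log2 fold change was -0.32 ± 0.23 (SE), with edgeR's adjusted p = 0.725. Without WD6 it was -0.57 (adjusted p = 0.187, edgeR).

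CELSR3, which guides axons, was at 57.2, 70.5, 53.1, 63.8 and 71.7 CPM in CON2, CON3, CON4, CON5 and CON13. The WD libraries WD6, WD7, WD8, WD9 and WD15 were at 67.4, 50.1, 34.7, 44.8 and 53.5 CPM. Again WD6 was the highest WD library, and WD7, WD8 and WD9 lay below the control range. Its log2 fold change was -0.34 ± 0.19 (SE), with edgeR's adjusted p = 0.619, the smallest adjusted p of the 12 receptors paired by class. CELSR1 ranged from 11.02 to 33.5 CPM in control and from 14.2 to 22.3 CPM in WD camels (log2 fold change -0.074, adjusted p = 0.959 by edgeR). CELSR3 had between 0.353 and 0.479 times the counts of CELSR2 within a control library and between 0.324 and 0.582 times within a WD library. Of 6 listed partners in planar cell polarity 1 was paired, FZD3, a Frizzled receptor, with a log2 fold change of 0.10 (adjusted p = 0.941, edgeR).

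ADGRA2, ADGRF5 and ADGRL4 are known from vessels. ADGRA2 is a co-receptor for WNT7 signals in the endothelium of the growing brain. It was at 49.3, 33.8, 28.7, 37.5 and 67.0 CPM in CON2, CON3, CON4, CON5 and CON13, and at 26.1, 26.1, 39.3, 28.5 and 38.3 CPM in WD6, WD7, WD8, WD9 and WD15. CON13, where 1 read pair weighs most, held the highest level from 56 read pairs. The log2 fold change was -0.39 ± 0.23 (SE), with edgeR's adjusted p = 0.643, and without CON13 its size was smaller, at -0.24 (adjusted p = 0.862, edgeR). Its ligands WNT7A and WNT7B had log2 fold changes of 0.41 and -0.58 and were not called (adjusted p = 0.848 and 0.691, edgeR), and RECK was not paired.

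ADGRF5, a receptor of endothelium and lung epithelium, was at 48.0, 33.4, 40.2, 38.9 and 47.8 CPM in CON2, CON3, CON4, CON5 and CON13. In WD6, WD7, WD8, WD9 and WD15 it was at 36.5, 35.2, 51.6, 63.2 and 62.9 CPM. WD8, WD9 and WD15 lay above all control libraries, while WD6 and WD7 lay within them. ADGRF5 had a log2 fold change of 0.28 ± 0.20 (SE), with edgeR's adjusted p = 0.726, and 0.18 without WD9 (adjusted p = 0.920, edgeR). SFTPD, surfactant protein D and a ligand of ADGRF5, was paired only through the table chosen by p and did not pass the filter, with 51 read pairs in control and 20 in WD libraries.

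ADGRL4, an endothelial receptor known from angiogenesis, was at 9.39, 9.23, 9.41, 6.44 and 5.98 CPM in CON2, CON3, CON4, CON5 and CON13, from 5 read pairs in the last. The WD libraries, in the order WD6, WD7, WD8, WD9 and WD15, were at 4.27, 10.1, 14.7, 20.2 and 26.7 CPM. WD6, with 9 read pairs, was the lowest of all 10 libraries and the other 4 WD libraries were above every control library. The mean was 8.09 ± 1.73 CPM (SD, n = 5) in controls and 15.2 ± 8.70 CPM (SD, n = 5) with WD, a log2 fold change of 0.90 (standard error 0.35), which was not called (adjusted p = 0.402, edgeR). Without WD6 the log2 fold change was 1.09 (adjusted p = 0.0810, edgeR), and without WD15 it was 0.63 (adjusted p = 0.841, edgeR). ADGRL4 too had been found through this comparison.

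The libraries that were high for ADGRF5 and ADGRL4 were also the highest for FLT1 and KDR, 2 of the 10 paired endothelial markers, which were picked out after the levels had been seen. This held for none of the other paired endothelial markers, since in each of them a control library or WD6 lay above WD8 or WD9. VWF was at 114.5 CPM in WD9, below CON2, CON3, CON5 and CON13, and TEK had a log2 fold change of -0.062. FLT1 and KDR, receptors of vascular endothelial growth factor, were at 94.8, 83.8 and 101 CPM and at 59.3, 63.3 and 73.5 CPM in WD8, WD9 and WD15, above all other libraries. Neither was called (log2 fold change 0.62 and 0.64, adjusted p = 0.362 and 0.402 by edgeR). ADGRF5 was at 0.410 to 0.702 of the summed CPM of FLT1 and KDR in control libraries and at 0.335 to 0.429 in WD libraries. ADGRL4 was at 0.0678 to 0.166 of that sum in control and at 0.0466 to 0.153 in WD libraries. Of 13 endothelial markers listed, 10 were paired, none of them at 0, and 0 of the 9 tested was called by edgeR or by DESeq2. At an unadjusted p under 0.05 in edgeR stood 4, FLT1 and KDR, which were paired by class, and ENG and ESAM, which were paired only through the table chosen by p. The summed level of the 10 was between 283 and 481 CPM in control and between 303 and 606 CPM in WD libraries. WD8 and WD15 had the highest sums (606 and 577 CPM), whereas WD9, at 379 CPM, was below CON2, CON5 and WD6. PECAM1, CDH5 and CLDN5 were not paired. The part of endothelial RNA in the levels of ADGRF5 and ADGRL4 was not tested.

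**Figure D4:**
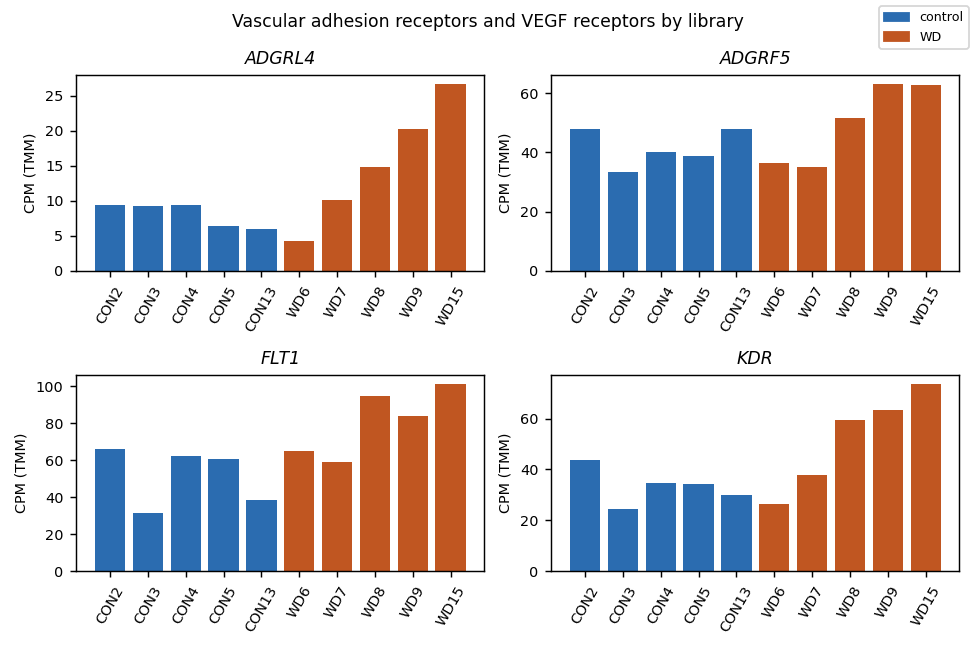
Bars give the CPM (TMM-normalized) of ADGRL4, ADGRF5, FLT1 and KDR in each of the 10 libraries, control in blue and WD in orange, on axes that start at 0. WD8, WD9 and WD15 are the highest 3 libraries in all 4 panels.

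ADGRG1 is a receptor of collagen III and transglutaminase 2 that is known from cortical development, oligodendrocyte precursors and microglia. It was at 54.6, 65.0, 51.1, 46.3 and 53.8 CPM in CON2, CON3, CON4, CON5 and CON13. In WD6, WD7, WD8, WD9 and WD15 it was at 83.0, 72.8, 61.8, 61.6 and 70.8 CPM. The groups met at CON3, which lay above WD8 and WD9, and the other 4 control libraries were below every WD library. The coefficient of variation was 12.8% in control and 12.7% in WD camels, the lowest of the 14 receptors tested in each group. The log2 fold change was 0.37 ± 0.16 (SE), with edgeR's adjusted p = 0.492. ADGRG1 was not called, and it had been found through this comparison.

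COL3A1, the collagen III ligand of ADGRG1 and paired by class, was at 46.5, 32.9, 37.7, 48.2 and 44.2 CPM in CON2, CON3, CON4, CON5 and CON13, and at 25.6, 22.2, 30.6, 22.3 and 14.6 CPM in WD6, WD7, WD8, WD9 and WD15. Every WD library lay below every control library, and the groups did not overlap in 2.62% of all genes tested. The log2 fold change of COL3A1 was -0.86 (adjusted p = 0.0857 by edgeR, which did not call it, and 0.00765 by DESeq2, which did). The paper names COL3A1 among the few genes whose WD change was not borne out by its qRT-PCR in the rostral SON. TGM2, transglutaminase 2, was at 30.4 ± 8.24 CPM (SD, n = 5) in controls and 30.6 ± 11.2 CPM (SD, n = 5) with WD (adjusted p = 0.998, edgeR). The 10 microglia and macrophage markers paired, of 11 listed, summed to between 224 and 372 CPM in control libraries and between 289 and 851 CPM in WD libraries, highest in WD15. All 10 had a log2 fold change above 0 and 0 of 10 was called by edgeR or by DESeq2, with 9 at an unadjusted p under 0.05 in edgeR, and 6 of the 10 had been paired only through the table chosen by p. The 3 astrocyte markers paired, all through that table, summed to 298 to 416 CPM in control and 475 to 624 CPM in WD libraries, with 0 of 3 called by edgeR, all 3 at an unadjusted p under 0.05, and 1 called by DESeq2. The 6 oligodendrocyte lineage markers paired, of 8 listed, summed to 148 to 324 CPM in control and 131 to 247 CPM in WD libraries, with 0 of 6 called by edgeR or DESeq2. CSPG4, the only one of them paired through the table chosen by p, was also the only one at an unadjusted p under 0.05 in edgeR. No paired marker of these 3 lists was at 0, and their part in the level of ADGRG1 was not tested.

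ADGRG6, a receptor that Schwann cells need for myelination, was between 5.62 and 13.3 CPM in control and between 6.12 and 13.2 CPM in WD camels, from 476 read pairs in all. The groups covered nearly the same range (log2 fold change -0.17, standard error 0.31, adjusted p = 0.928 by edgeR). Its 95% interval ran from 0.564 to 1.40 as a fold. With 1 library left out at a time, the log2 fold change of ADGRG6 ranged from -0.46 (without WD8) to 0.057 (without CON5), and was -0.34 without CON4. Of its ligands, COL4A1 and PRNP had log2 fold changes of 0.32 and 0.27 and were not called (adjusted p = 0.687 and 0.643, edgeR). ADGRD1 ranged from 9.56 to 21.5 CPM in control and from 10.1 to 14.03 CPM in WD camels, with CON3 the highest of the 10 (log2 fold change -0.32, adjusted p = 0.734 by edgeR, and -0.14 without CON3, adjusted p = 0.977 by edgeR). Its ligand PTK7 had a log2 fold change of -0.21 (adjusted p = 0.848, edgeR). ADGRG7, known from the intestine, had 38 read pairs in control and 50 in WD libraries and did not pass the filter.

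ADGRE5 (CD97), a leukocyte receptor, was at 8.75, 10.2, 8.72, 15.5 and 25.1 CPM in CON2, CON3, CON4, CON5 and CON13. The WD libraries, in the order WD6, WD7, WD8, WD9 and WD15, were at 15.7, 10.8, 15.2, 13.6 and 23.8 CPM. CON13 was the highest of the 10, from 21 read pairs, followed by WD15. ADGRE5 had a log2 fold change of 0.34 ± 0.30 (SE), with edgeR's adjusted p = 0.793, and 0.53 without CON13 (adjusted p = 0.675, edgeR), and 0.14 without WD15 (adjusted p = 0.981, edgeR). It was 0.20 without CON2 and 0.19 without CON4. WD15 also held the highest sum of microglia and macrophage markers, 851 CPM, whereas CON13 was at 263 CPM, within the control range. The part of leukocyte RNA in its level was not tested. Of its partners, THY1 had a log2 fold change of -0.61 (adjusted p = 0.472, edgeR) and was paired through the table chosen by p, and CD55 was not paired.

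ADGRE2 and ADGRE3, receptors of myeloid cells, were near the limit of detection. ADGRE2 had 32 read pairs in control and 42 in WD libraries, and ADGRE3 had 20 and 40. ADGRE3 had 1 read pair in each of CON4 and CON5 and 0 in WD6, where a count of 0 allows up to 1.42 CPM (a floor of 3 counts, for counting error only). Both failed the filter of the edgeR fit. DESeq2, run without that filter, gave log2 fold changes of 0.062 ± 0.71 (SE) for ADGRE2 and -0.10 ± 1.004 (SE) for ADGRE3 (adjusted p = 0.989 and 0.987, DESeq2). The 3 neutrophil markers paired, of 6 listed, summed to 1.26 to 19.1 CPM in control and 1.99 to 6.91 CPM in WD libraries, and CSF3R, the only one tested, was not called (log2 fold change -1.16, adjusted p = 0.531 by edgeR). ADGRE receptors are close in sequence, and how the authors counted reads shared between genes is not stated, so the split of counts between them is uncertain.

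Signalling genes behind these receptors were counted as a list. Of 14 listed, 7 were paired and tested, 0 was called by edgeR and 1, DLG4, by DESeq2. Over all genes tested, edgeR called 0.499% and DESeq2 1.27%. Of the 7, 4 (GNA12, GNAQ, DLG4 and ROCK1) were at an unadjusted p under 0.05 in edgeR, beside 9.31% of all genes. The 4 paired only through the table chosen by p were GNA12, GNA13, GNAQ and DLG4, so their values are a description. GNA12 and GNA13, the G protein subunits through which several adhesion receptors activate RhoA, had log2 fold changes of 0.34 and 0.38 (adjusted p = 0.536 and 0.566, edgeR). ROCK1, a kinase activated by RhoA, was at 31.1 ± 12.2 CPM (SD, n = 5) in controls and at 47.2 ± 10.9 CPM (SD, n = 5) with WD (log2 fold change 0.55, adjusted p = 0.492 by edgeR). ROCK2 and RAC1 had log2 fold changes of 0.11 and 0.064, and those of GNAQ and DLG4 were 0.47 and -0.58. Over all partner lists together, 17 of 35 genes were paired, 16 were tested and edgeR called 1, C1QL4, while DESeq2 called 3 (C1QL4, NRXN2 and COL3A1). The shares called over all genes tested were 0.499% by edgeR and 1.27% by DESeq2. C1QL4 and NRXN2 were paired only through the table chosen by p, so their calls are a description. Of the 8 partners paired by class 0 was called by edgeR, with 5 above and 3 below 0, 1 at an unadjusted p under 0.05 and 1 called by DESeq2, COL3A1 in both cases.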

How the data were processed

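Sequenced RNA came from rostral SON punches, 5 of control and 5 of WD camels. The authors merged and trimmed reads with BBDuk, aligned them to Camdro2 with STAR and counted read pairs per gene with FeatureCounts. They deposited raw counts per gene ID, and a table of the counts divided by a DESeq2 size factor (a signal per gene), which was not used. The annotation release, the strand setting and the treatment of shared reads are not given in the sources used here, so neighbouring or similar genes are uncertain. In RefSeq's assembly mCamDro1.pat, ADGRL1 neighbours ADGRE5 and ADGRL2 neighbours ADGRL4, with 0 protein-coding genes between.

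Symbols came from the study's tables, which pair 4316 of 22444 IDs. Counts were fitted with edgeR 4.0.16 in R 4.3.3 (TMM, filterByExpr by group, robust quasi-likelihood F test), with Benjamini-Hochberg adjustment over 14432 genes. The standard error is the size of the log2 fold change divided by the square root of F. The biological coefficient of variation was 0.285. DESeq2 1.42.0 was an alternative, as were DESeq2 size factors, library totals, other filters, depth group, RNA integrity number (RIN), and each library left out. Ratios within a library used counts plus 0.5. No library was a copy of another, since the lowest chi-square per degree of freedom within a group was 8.03, far above sampling noise. The edgeR step was tested on simulated counts.

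All receptors paired with an ID are reported, with binding partners, signalling genes and cell type markers from fixed lists. A listed partner that is counted in the totals is not reported here by itself. The receptors and lists were chosen with earlier results of these data known. The labels do not say more of how samples within a group are related than that each is 1 camel. No coordinates or sequences are given.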

Additional observations from a re-analysis of the deposited data

Results flagged for a closer look

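In 28 groups of 5 libraries (14 receptors, log2 CPM), 1 library stood apart from its group in 2, and chance flags about 1 in 20. WD6 was apart for ADGRB3, at 28.0 CPM with the next WD library at 50.8 CPM, a gap of 0.711 of the range of the group (critical value 0.71). WD9 was apart for CELSR1, at 14.2 CPM with the next WD library at 20.3 CPM, a gap of 0.79 of the range. Without WD6 the log2 fold change of ADGRB3 was 0.33 (adjusted p = 0.487, edgeR), beside 0.19 with all libraries and 0.089 without WD9. Without WD9 that of CELSR1 was 0.027 (adjusted p = 0.994, edgeR), beside -0.074.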

How the results depend on the processing

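No adhesion receptor was called under any of 18 alternatives of the fit, and the lowest adjusted p was 0.0810 (ADGRL4 without WD6, edgeR). Of the 14 receptors, 11 kept their direction throughout, and CELSR1, ADGRG6 and ADGRL1 did not. Library totals, which moved the median log2 fold change of all genes from 0.017 to 0.16, gave 0.074, 0.015 and 0.11 for these 3. ADGRL1 was at 0.017 with no filter, 0.0057 with at least 10 counts in every library, 0.032 with depth group and 0.015 with RIN as a covariate. CELSR1 was at 0.061 with depth group as a covariate and at 0.0083 without CON13 and WD6, a setting chosen after the data were seen. With each library left out in turn, ADGRL1 lay between -0.10 and 0.044, CELSR1 between -0.28 and 0.056, ADGRG6 between -0.46 and 0.057, and the log2 ratio difference of CELSR3 to CELSR2 between -0.13 and 0.082, the last being 0.027 without CON13 and WD6. The cause was not tested. Other log2 fold changes moved by more than 1.5 times without turning. With library totals ADGRA2 was at -0.17, ADGRB3 at 0.41, ADGRD1 at -0.20, ADGRF5 at 0.49 and ADGRL2 at -0.047. With depth group ADGRB2 was at -0.076 and ADGRB3 at 0.090, and with RIN ADGRL2 was at -0.12, ADGRE5 at 0.17, ADGRG6 at -0.30 and CELSR1 at -0.16. With no filter CELSR1 was at -0.049. Of the 12 receptors paired by class, edgeR's unadjusted p was under 0.05 for ADGRL2 with depth group, for ADGRA2 with RIN and without CON4, and for ADGRB2, CELSR2 and CELSR3 without WD6 and without both CON13 and WD6. The other 42 values of the ratios kept their direction and their side of the threshold, and all 102 of the control levels moved by less than 1 SD. ADGRD1, ADGRG6 and ADGRL4 had no value with at least 10 counts in every library. The number of DEGs over all genes ranged from 10 (library totals) to 224 (depth group) beside 72. No paired analysis was run, since the control and WD libraries came from different camels. Low depth limits CON13 and WD6 most.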

Other observations

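After the ratios of related receptors had been seen, they were set against depth (log2 of the read pairs outside the 5 dominant IDs) over the 10 libraries. The 4 relations are values from libraries that share these counts. The ratio of ADGRB2 to ADGRB3 fell with depth (Pearson's r = -0.83 with permutation p = 0.00303, and Spearman's rho = -0.79 with permutation p = 0.00878). That of ADGRL1 to ADGRL2 had r = -0.56 (permutation p = 0.110) and rho = -0.82 (permutation p = 0.00545). Adjusted over the 4 ratios by Benjamini-Hochberg, rho had a permutation p of 0.0176 for both, and r had 0.0121 for ADGRB2 to ADGRB3 and 0.221 for ADGRL1 to ADGRL2. Without CON13 and WD6, the libraries farthest from the median depth, r was -0.65 for ADGRB2 to ADGRB3, -0.81 for ADGRL1 to ADGRL2, -0.49 for CELSR1 to CELSR2 and, turned in sign, -0.30 for CELSR3 to CELSR2. CELSR1 to CELSR2 (r = -0.12, permutation p = 0.744, and rho = -0.10, permutation p = 0.783) and CELSR3 to CELSR2 (r = 0.39, permutation p = 0.254, and rho = 0.52, permutation p = 0.135) had no relation past the threshold over all 10 libraries. No correlation is given within a group, since each holds only 5 libraries. The cause was not tested.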
